A study of Mus musculus with 12 samples.

Results

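Haem is built by a chain of enzymes that begins and ends in the mitochondrion and passes through the cytosol in between. In developing red cells the chain is driven by Alas2, the erythroid form of the first enzyme, and it is fed with iron through mitoferrin 1, the product of Slc25a37. The mouse spleen makes red cells throughout life, so these transcripts are read in the spleen together with those of the maturing erythroid cells that carry them. The genes described here are 7 enzymes of the chain and 2 mitochondrial transporters, given in pathway order: Alas2, Alad, Uros, Urod, Cpox, Ppox, Fech, Slc25a37 and Abcb10. The step between Alad and Uros was not analysed here. All probe sets (groups of short array probes that together give 1 signal) annotated to exactly 1 of these 9 genes were taken. This gave 21 of 45037 probe sets. Of these, 19 passed the filter on low signal; 1 probe set of Ppox (1441862_at, 12.2 to 142.6 in signal) and 1 of Fech (1427696_at, 3.5 to 26.0) did not.

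Total RNA of whole spleens was read on 12 Affymetrix arrays, 1 mouse each. The groups were 3 Il1rn-deficient mice aged 1 month, 3 Il1rn-deficient mice aged 4 months, and 3 wild-type mice at each of these ages. All 12 mice were of the BALB/c strain, and nothing in the sources used here says how the deficiency was made or which mice had arthritis, the disease that the study's title names. Il1rn encodes the interleukin 1 receptor antagonist, a secreted blocker of interleukin 1 signalling. In what follows ko stands for Il1rn-deficient and wt for wild type, and mice are numbered as in the labels. Values are scaled signals (linear, with the trimmed mean of each array set to 500), and a signal may be compared between mice for 1 probe set but not between probe sets. A log2 difference is that of signal + 32, its SE comes from limma, and a call means an adjusted p (Benjamini and Hochberg's method, across the 27041 probe sets tested) under 0.05.

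The Il1rn probe set 1451798_at was lower in ko mice at both ages, by a log2 difference of -2.17 at 4 months (limma adjusted p = 0.0034) and of -1.70 at 1 month (adjusted p = 0.0403), while the other 2 of its 3 probe sets were not called at either age. Lists of B cell, T cell and red pulp macrophage genes had summed signals of at least 23680, 6184 and 32988 in every array. The arrays fell into a set of 6 whose highest signal was 51247 to 68987 and a set of 6 whose highest signal was 33427 to 37921. All 3 ko mice of 1 month lay in the low set, and each of the other groups had 2 arrays in the high set and 1 in the low set (mouse 2 of the 4-month ko group and mouse 3 of both wt groups). Values with the array set as a block are therefore given beside those of the brightest probe sets, Alas2 and Fech. The array of 4-month wt mouse 1 had the highest 3' to 5' ratio for Gapdh (0.9995, against 0.649 to 0.816 in the other arrays), a sign of RNA quality, and 4-month wt mouse 2 carried pancreas transcripts, with a summed signal of 85582.

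Promoter sequence is shown for the genes with a GATA word, the motif bound by the erythroid factor GATA1, close to the start. The search was made because the 9 genes all fell with age in wt spleens, though Alas2 did not in ko spleens. The 250 bases before each RefSeq start (GRCm38.p6) were searched on both strands for the words AGATAA and AGATAG and also TGATAA and TGATAG in 9 windows of 7 of the genes, with none used for Fech and Slc25a37. The 2 windows of Alad overlap each other, and Uros has 2 separate starts. Capitals mark the GATA words, which lay on the strand opposite to the gene in all 3 windows that held any, so that they appear reversed and complemented. The windows run 5′ to 3′ on the strand of the gene, which is plus at chrX:150547167-150547416 for Alas2, minus at chr7:133702501-133702750 for the downstream start of Uros and plus at chr16:58669958-58670207 for Cpox.
Alas2: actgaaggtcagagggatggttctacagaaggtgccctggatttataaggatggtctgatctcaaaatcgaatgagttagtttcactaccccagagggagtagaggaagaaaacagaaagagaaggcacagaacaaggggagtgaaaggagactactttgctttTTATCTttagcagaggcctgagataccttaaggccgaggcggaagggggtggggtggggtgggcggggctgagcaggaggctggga
Uros: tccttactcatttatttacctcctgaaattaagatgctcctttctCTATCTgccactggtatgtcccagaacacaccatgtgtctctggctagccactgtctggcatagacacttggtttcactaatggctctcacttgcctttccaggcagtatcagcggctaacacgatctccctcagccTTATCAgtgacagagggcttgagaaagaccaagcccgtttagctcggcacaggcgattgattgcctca
Cpox: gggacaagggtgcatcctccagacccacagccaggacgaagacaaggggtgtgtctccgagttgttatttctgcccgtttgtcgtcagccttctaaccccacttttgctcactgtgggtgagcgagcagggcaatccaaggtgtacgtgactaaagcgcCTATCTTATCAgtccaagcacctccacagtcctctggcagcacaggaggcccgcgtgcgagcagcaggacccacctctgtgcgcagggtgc
The Alas2 word spans bases 86 to 81 before the start, those of Uros bases 205 to 200 and 68 to 63, and the 2 of Cpox overlap by 1 base at bases 91 to 86 and 86 to 81. A GATA word was present in 3 of the 9 windows and in 26.54% of all 32851 windows of this length. The word CCNCNCCC, read by Klf1-type factors, was in 4 of the 9 windows, namely that of Alas2, both of Alad and the upstream one of Uros, against 45.93% of all windows. The word CCAAT was in 4 of the 9 windows, against 33.85% of all. These shares are descriptions of the letters and say nothing about binding.

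At 4 months 9 of the 19 haem probe sets, from Alad, Uros, Urod, Ppox, Fech and Abcb10, were called higher in ko than in wt spleens and 0 lower, against 1.78% of all probe sets tested that were called higher and 0.518% lower. All 19 had a positive difference, between 0.21 and 1.51, with a median of 0.76 where the median of all probe sets tested was -0.01, and in 15 the groups did not overlap, with ko higher, against 10.9% of all. At 1 month 0 of the 19 were called (0.444% of all were, in either direction), and 3 had an unadjusted p under 0.05, where 15.8% of all probe sets did. With age, in wt spleens 17 of the 19 probe sets, from all 9 genes, were lower at 4 months than at 1 month, against 9.67% of all that were called lower. In ko spleens 12 of the 19, from 8 genes, were lower at 4 months, against 9.25% of all, and Alas2 was the gene without a call. By each gene's brightest probe set 6 of the 9 genes were called lower, against 1339 of all 12339 genes. Alas2, Alad and Fech were not called by that probe set. In whole spleen RNA, fewer cells of a type and less RNA per cell cannot be told apart.

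**Figure D1:**
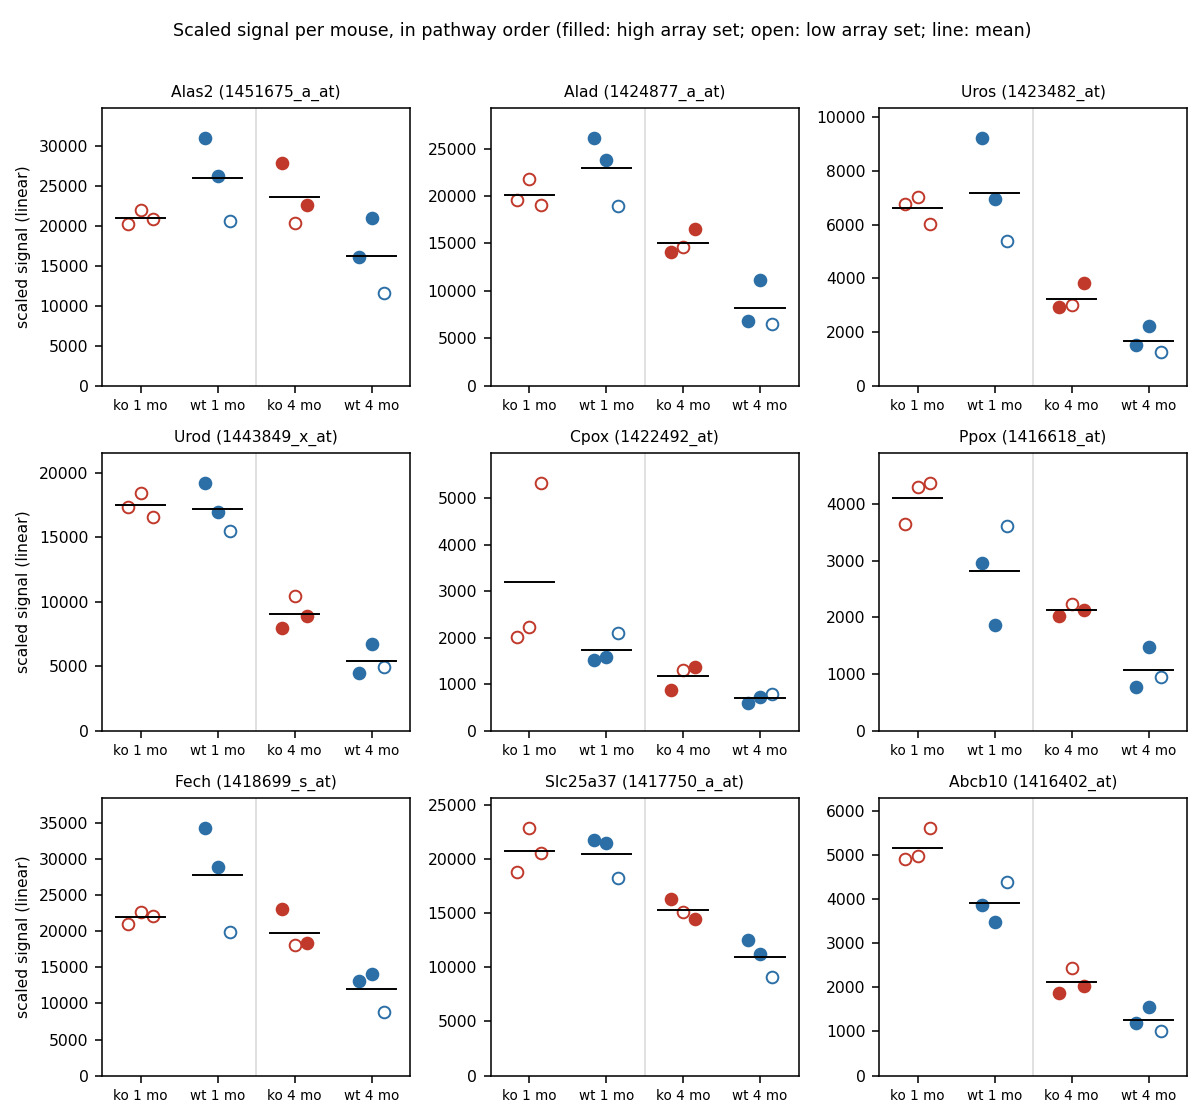
Scaled signal (linear axis from 0) of each gene's brightest probe set in each mouse, with ko left of wt at each age, 3 mice a group, the group mean as a line, filled points for arrays of the high set and open points for the low set. In 8 of the 9 genes every 4-month ko mouse lies above every 4-month wt mouse, and Alas2 is the exception.

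Alas2 makes the first committed precursor, 5-aminolevulinic acid, and its activity sets the pace of haem synthesis in red cells. At 1 month its signal was 20176, 22025 and 20854 in ko mice, against 30969, 26262 and 20577 in wt mice. At 4 months it was 27894, 20305 and 22541 in ko mice, against 16114, 20982 and 11582 in wt mice. The groups overlapped at both ages, at 4 months through ko mouse 2 and wt mouse 2. The ko minus wt log2 difference was 0.57 ± 0.20 (SE) at 4 months (limma adjusted p = 0.161) and -0.28 ± 0.20 at 1 month (adjusted p = 0.5), neither of which was called, with 95% intervals of 0.15 to 0.99 and of -0.70 to 0.14. The array sets divided these values: at 1 month the wt mouse of the low set, at 20577, lay among the ko mice, and both wt mice above them were in the high set. With the array set as a block the Alas2 difference was 0.57 at 4 months (adjusted p = 0.0162) and 0.04 at 1 month (adjusted p = 0.958). Within the low set alone, with 1 wt mouse at each age and 1 ko mouse at 4 months, it was 0.81 at 4 months and 0.03 at 1 month, and within the high set it was 0.45 at 4 months. Without 4-month wt mouse 2 it was 0.77 at 4 months and was called (adjusted p = 0.038), as it was after quantile normalization (0.51, 0.0417).

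Alas2 had the smallest fall with age in wt spleens among the brightest probe sets of the 9 genes. It fell by 0.70 on the log2 scale between 1 and 4 months (limma adjusted p = 0.02), a call that was lost without 1-month wt mouse 1 (-0.56, adjusted p = 0.0997), 1-month wt mouse 2 (-0.68, 0.054) or 4-month wt mouse 3 (-0.48, 0.0921). In ko spleens the 4-month minus 1-month difference of Alas2 was 0.15 ± 0.20 (adjusted p = 0.628), the only positive one among the 19 probe sets, and it was -0.17 with the array set as a block. The change with age in ko minus that in wt, which is the same as the genotype difference at 4 months minus that at 1 month, was 0.85 (95% interval 0.26 to 1.44), with an adjusted p of 0.399.

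Alad condenses the precursor made by Alas2 into porphobilinogen in the cytosol. Its brighter probe set, 1424877_a_at, read 14087, 14654 and 16551 in ko mice of 4 months, against 6815, 11111 and 6558 in wt mice of that age. Every ko mouse was above every wt mouse, and wt mouse 2 was the highest of its group. The difference was 0.92 ± 0.18, or 1.90-fold (limma adjusted p = 0.0134). The Alad call was lost without 4-month ko mouse 3 (0.86, adjusted p = 0.0855), wt mouse 1 (0.82, 0.076) or wt mouse 3 (0.79, 0.0671). At 1 month the signals overlapped, at 19547, 21793 and 19037 in ko mice against 26105, 23804 and 18989 in wt mice, with a difference of -0.18 (adjusted p = 0.657). Both wt mice above the ko mice were of the high array set. In wt spleens this probe set fell by 1.52 with age (adjusted p = 2.8e-05). In ko spleens its difference with age was -0.41 (adjusted p = 0.115), although all 3 ko mice of 4 months lay below all 3 of 1 month, and it was called without 4-month wt mouse 2 (0.0436). The dimmer Alad probe set, 1457306_at, gave a smaller genotype difference at 4 months (0.44, adjusted p = 0.186; 0.61 and 0.0381 without wt mouse 2) and fell with age by 1.28 in ko and by 1.49 in wt spleens (adjusted p = 0.000107 and 1.06e-05), so that the probe sets disagree on ageing in ko spleens.

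Uros closes the linear tetrapyrrole into the ring isomer from which haem is made. At 4 months Uros (1423482_at) read 2923, 3003 and 3823 in ko mice, against 1515, 2218 and 1262 in wt mice, with no overlap. The difference was 0.98 ± 0.21, or 1.97-fold (limma adjusted p = 0.0201), and it lost its call without ko mouse 2 (1.03, adjusted p = 0.0529), ko mouse 3 (0.86, 0.12), wt mouse 1 (0.93, 0.0817) or wt mouse 3 (0.80, 0.0958). At 1 month the values were 6768, 7015 and 6033 in ko mice, against 9222, 6937 and 5393 in wt mice, whose spread enclosed the ko values. Uros had the steepest fall with age of the 19 probe sets in wt spleens, by 2.09 (adjusted p = 5.29e-06), and it fell by 1.02 in ko spleens (adjusted p = 0.00239). A dim second probe set, 1440535_at, had 201, 208 and 193 in 4-month ko mice, against 149, 155 and 146 in 4-month wt mice. These did not overlap either, but the difference of 0.35 was not called (adjusted p = 0.4). With age it fell by 0.66 in ko (0.0219) and by 0.86 in wt spleens (0.00542), and the fall in ko spleens lost its call without ko mouse 2 or 3 of 1 month or ko mouse 1 or 3 of 4 months (-0.67 to -0.61, 0.0641 to 0.0895).

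Urod removes carboxyl groups from the ring to give coproporphyrinogen. Both of its probe sets were called at 4 months. Urod 1443849_x_at read 7938, 10433 and 8917 in ko mice, against 4463, 6744 and 4972 in wt mice (0.76 ± 0.16, limma adjusted p = 0.0188). Urod 1417206_at read 3009, 5505 and 3796 in ko mice, against 1183, 2517 and 2339 in wt mice (1.04 ± 0.24, adjusted p = 0.03). Neither probe set overlapped between the genotypes, and ko mouse 2 was the highest in both. Both calls were lost without ko mouse 2 (0.66 and 0.81), ko mouse 3 (0.77 and 1.08) or wt mouse 1 (0.64 and 0.71), with adjusted p between 0.0796 and 0.126, and that of 1443849_x_at also without wt mouse 3 (0.72, adjusted p = 0.0736). At 1 month the difference was 0.02 for 1443849_x_at, with a 95% interval of -0.31 to 0.36, and 0.06 for 1417206_at. Between 1 and 4 months 1443849_x_at fell by 0.95 in ko and by 1.69 in wt spleens (adjusted p = 0.000715 and 4.26e-06), and 1417206_at by 0.89 in ko and by 1.87 in wt spleens (0.0137 and 4.85e-05). The ko call of 1417206_at was lost without 4-month ko mouse 1 (-0.69, 0.0844) or 3 (-0.86, 0.0505).

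Cpox oxidises coproporphyrinogen in the mitochondrial intermembrane space. Its brightest probe set, 1422492_at, read 2021, 2235 and 5324 in ko mice of 1 month, against 1515, 1587 and 2094 in wt mice. The high value of ko mouse 3 came with a high value in a second Cpox probe set, 1422493_at, at 341, 965 and 1618 in the same ko mice against 661, 368 and 681 in wt mice. The third, 1440747_at, did not share it, at 217, 152 and 181 in the ko mice. The 1-month difference of 1422492_at, 0.74 ± 0.28, was the largest of the 19 and was not called (limma adjusted p = 0.221). At 4 months the 1422492_at signals were 872, 1308 and 1369 in ko mice, against 600, 721 and 784 in wt mice. They did not overlap, yet with a difference of 0.71 Cpox had no call (adjusted p = 0.221). With age 1422492_at fell by 1.29 in ko and by 1.26 in wt spleens (adjusted p = 0.00389 and 0.00491). For 1422493_at the age difference was -0.57 in ko spleens (adjusted p = 0.329) and -1.16 without 1-month ko mouse 1 (0.0154), and in wt spleens it was -0.93 (0.101; 0.0235 without that ko mouse, through the shared estimate of the spread).

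Ppox takes the last oxidation step before iron is inserted. At 4 months Ppox (1416618_at) read 2028, 2237 and 2131 in ko mice, against 777, 1483 and 951 in wt mice. The ko mice lay close together and all above the wt mice, and the difference was 1.02 ± 0.23, or 2.03-fold (limma adjusted p = 0.0256). Leaving out any 1 of the 3 ko mice, wt mouse 1 or wt mouse 3 ended this Ppox call, with differences of 0.83 to 1.06 and adjusted p of 0.0772 to 0.119. At 1 month the ko mice, at 3644, 4304 and 4375, were again all above the wt mice, at 2952, 1867 and 3617, and the difference of 0.59 (95% interval 0.11 to 1.07) was not called (adjusted p = 0.23). Ppox fell with age by 0.93 in ko and by 1.37 in wt spleens (adjusted p = 0.00775 and 0.00054). The second Ppox probe set, 1448065_at, read 243, 459 and 388 in 4-month ko mice, against 46, 308 and 281 in wt mice, in which mouse 1, the array with the high Gapdh ratio, was the lowest. Its age difference in ko spleens, -0.98, was not called (adjusted p = 0.0883) but was without that array (0.00332), again through the shared spread.

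Fech, ferrochelatase, inserts iron into protoporphyrin at the inner mitochondrial membrane and so completes haem. It carried the calls at 4 months that were least dependent on the processing: 1449181_at and 1418698_a_at were called in 26 of 27 alternative analyses each, all but the one within the high set (adjusted p = 0.0922 for both). The signals of 1449181_at were 7117, 7316 and 4893 in ko mice, against 2767, 3519 and 3209 in wt mice, a difference of 1.00 ± 0.16 (limma adjusted p = 0.00316). Those of 1418698_a_at were 11447, 11627 and 10411 in ko mice, against 6260, 7781 and 5897 in wt mice (0.75 ± 0.14, adjusted p = 0.00877). The groups did not overlap in either. The brightest Fech probe set, 1418699_s_at, read 23080, 18101 and 18315 in 4-month ko mice, against 13173, 14058 and 8787 in 4-month wt mice. Its difference, 0.74, had about the same size, and its adjusted p was 0.0653, or 0.00269 with the array set as a block. The probe set was likewise called without 1-month wt mouse 1 (0.0473), 1-month wt mouse 3 (0.0274) or 4-month wt mouse 2 (0.0362).

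At 1 month the Fech probe sets pointed in opposite directions. Fech 1418699_s_at read 20970, 22676 and 22167 in ko mice, against 34357, 28902 and 19965 in wt mice (-0.30, limma adjusted p = 0.47). Fech 1418698_a_at read 14756, 16095 and 15068 in ko mice, against 11957, 11789 and 14516 in wt mice (0.27, adjusted p = 0.351), and 1449181_at had a difference of 0.24. In the brightest probe set the wt mice of the high set were above all ko mice and the wt mouse of the low set below them, and its difference was 0.02 with the array set as a block. In wt spleens all 3 fell with age, by 1.20, 0.94 and 1.71 in the order 1418699_s_at, 1418698_a_at and 1449181_at (adjusted p at most 0.00054). In ko spleens 1449181_at fell by 0.95 (adjusted p = 0.000704) and 1418698_a_at by 0.46 (0.0248). The brightest, 1418699_s_at, was not called there (-0.15, adjusted p = 0.63), and its ages overlapped. The probe sets thus disagree on ageing in ko spleens. The call of 1418698_a_at was lost when any 1 of the 3 ko mice of 1 month, or ko mouse 1 or 3 of 4 months, was left out (-0.48 to -0.41, adjusted p 0.0536 to 0.102).

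Slc25a37 carries iron across the inner mitochondrial membrane to the site where Fech works. At 4 months it read 16324, 15065 and 14423 in ko mice, against 12507, 11224 and 9070 in wt mice. The groups did not overlap, and the difference of 0.49 ± 0.14 missed the threshold (limma adjusted p = 0.0915; 0.017 with the array set as a block). At 1 month the Slc25a37 difference was 0.01 (95% interval -0.29 to 0.32), from 18741, 22858 and 20489 in ko mice against 21750, 21466 and 18227 in wt mice. With age it fell by 0.91 in wt spleens (adjusted p = 0.000347) and by 0.43 in ko spleens (0.0388). The call in ko spleens was lost without 1-month ko mouse 2 or 3 or without any 1 of the 4-month ko mice (-0.48 to -0.36, adjusted p 0.067 to 0.157).

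Abcb10 is a transporter of the inner mitochondrial membrane that binds mitoferrin 1 and is needed for haem synthesis in erythroid cells. At 4 months Abcb10 1416402_at read 1873, 2448 and 2030 in ko mice, against 1187, 1558 and 1019 in wt mice (0.75 ± 0.16, limma adjusted p = 0.0223). Abcb10 1416403_at read 1709, 1821 and 1641 in ko mice, against 628, 809 and 1044 in wt mice (1.06 ± 0.21, adjusted p = 0.0126). The third, 1454265_a_at, read 296, 309 and 289 in ko mice, against 21, 177 and 107 in wt mice. None of the 3 overlapped between the genotypes. The wt values of the third lie around the signal of 100 used as the filter, with mouse 1 far below it, so that its difference, 1.51 ± 0.40, is not well determined. It missed the threshold (adjusted p = 0.0592; 0.0105 without wt mouse 2 and 0.0436 without 1-month wt mouse 2). Both calls of Abcb10 were lost without 4-month ko mouse 2 (0.64 and 1.02), ko mouse 3 (0.78 and 1.09) or wt mouse 1 (0.72 and 0.88), with adjusted p of 0.0572 to 0.103, and that of 1416402_at also without wt mouse 3 (0.62, 0.102).

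At 1 month Abcb10 1416402_at read 4908, 4987 and 5620 in ko mice, against 3858, 3485 and 4380 in wt mice. The ko mice were all above the wt mice, and the difference of 0.41 (95% interval 0.06 to 0.75) was not called (limma adjusted p = 0.242). Abcb10 was thus among 3 genes, with Ppox and Fech, in which a probe set did not overlap at 1 month, all 4 such probe sets being higher in ko mice, against 7.99% of all probe sets tested. All 1-month ko arrays are of the low set, so genotype and array set cannot be fully told apart here. The low-set wt mouse was the highest wt mouse for Abcb10 1416402_at, for Ppox 1416618_at (3617, lowest ko mouse 3644) and for Fech 1418698_a_at (14516, lowest ko mouse 14756). For Fech 1449181_at it was not. Abcb10 1416402_at also had the most regular order over the 4 groups, with ko of 1 month above wt of 1 month, both above ko of 4 months, and wt of 4 months lowest, and no overlap between neighbours. The same order without overlap was found for Fech 1418698_a_at and 1449181_at. In the other genes the 1-month groups, or the 1-month wt and 4-month ko groups, overlapped, and for Alas2 each group overlapped its neighbours in the order. With age Abcb10 1416402_at fell by 1.28 in ko and by 1.63 in wt spleens (adjusted p = 0.000108 and 5.48e-06), and 1416403_at by 0.72 in ko and by 1.41 in wt spleens (0.0197 and 0.000174). The ko call of 1416403_at was lost without 1-month ko mouse 3 (-0.57, 0.099), 4-month ko mouse 1 (-0.71, 0.0624) or 4-month ko mouse 3 (-0.68, 0.0698).

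**Figure D2:**
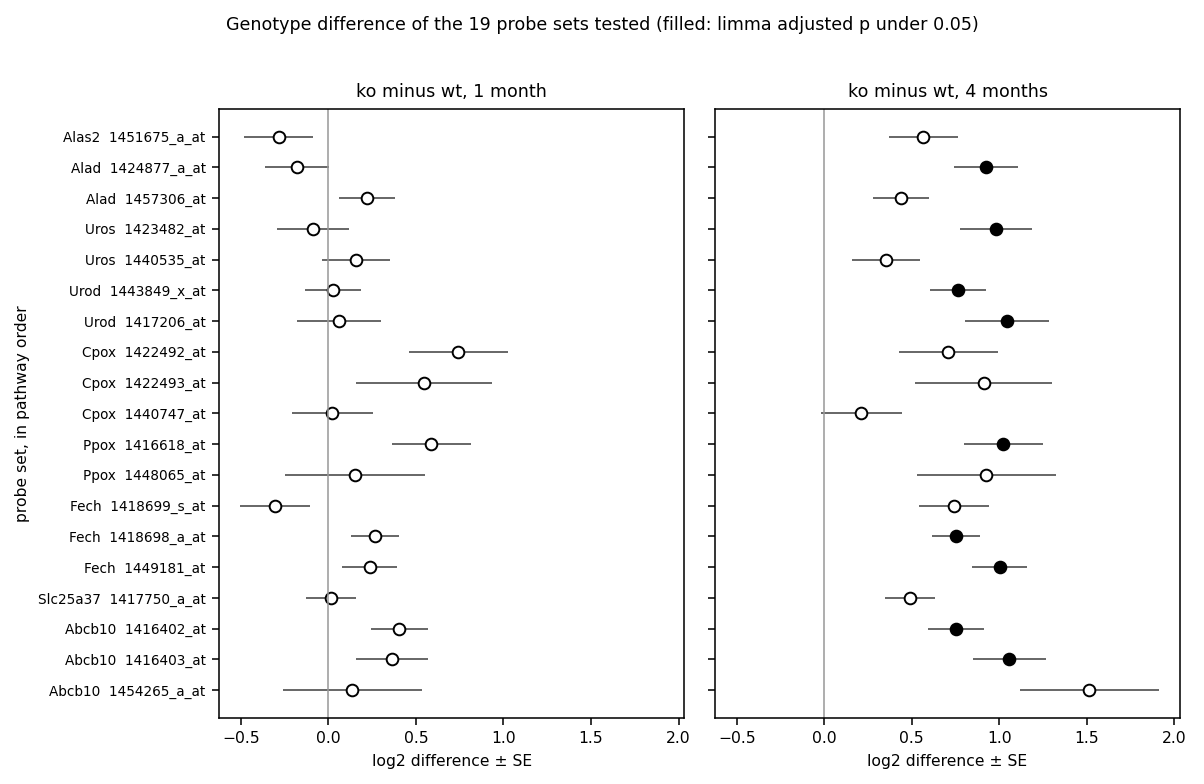
Log2 difference, ko minus wt, with its SE for the 19 probe sets tested, in pathway order from the top, at 1 month (left) and 4 months (right), from 3 mice a group; filled points had a limma adjusted p under 0.05. At 4 months all 19 points lie right of 0 and 9 are filled; at 1 month 15 lie right of 0 and 0 are filled.

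The genotype difference was larger at 4 months than at 1 month in 18 of the 19 probe sets, all but Cpox 1422492_at (-0.03). For this difference between the ages the median was 0.69 over the 19 and 0.03 over all probe sets tested. The test of that difference called 0 of the 19 (0.0481% of all probe sets were called, in either direction); the smallest limma adjusted p was 0.203, for Alad 1424877_a_at (1.10, 95% interval 0.56 to 1.65), and 11 of the 19 had an unadjusted p under 0.05, where 8.65% of all did. Without 4-month wt mouse 2 the Alad difference was 1.35 and was called (adjusted p = 0.0128), the only such call in the alternatives tried. The array sets divided the 1-month Alad values that enter it. These were 26105 and 23804 in the high-set wt mice, 18989 in the low-set wt mouse and 19037 to 21793 in the ko mice. With the array set as a block 0 of the 19 were called by this test. The number of haem probe sets called at 4 months depended on single mice: it was 8, 3 and 2 without ko mouse 1, 2 and 3, and 2, 13 and 4 without wt mouse 1, 2 and 3. Calls over all 27041 probe sets moved as well, from 621 in the main fit. They were 277, 246 and 161 without ko mouse 1, 2 and 3, and 274, 991 and 245 without wt mouse 1, 2 and 3. The haem count was 13 with the array set as a block (802 of all) and 0 within the high set (2 mice a group, 84 of all). Within the low set it was 10, but this sets 1 mouse against 1, and the spread comes from the 3 ko mice of 1 month alone. No called probe set changed direction when a mouse was left out.

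**Figure D3:**
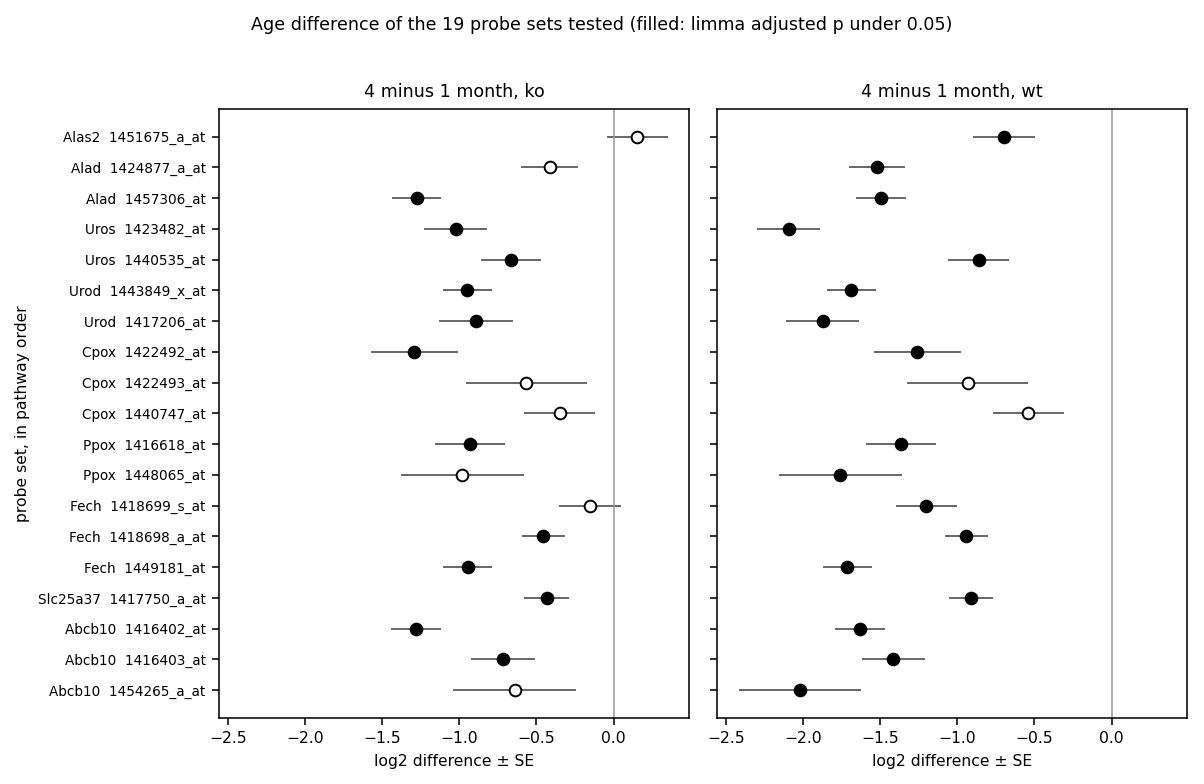
Log2 difference, 4 months minus 1 month, with its SE for the 19 probe sets in ko mice (left) and wt mice (right), from 3 mice a group; filled points had a limma adjusted p under 0.05. In wt mice 17 points are filled, all left of 0, with a median of -1.41 over the 19; in ko mice 12 are filled, all left of 0, with a median of -0.72, and the Alas2 point lies right of 0.

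Between genotypes at 4 months and with age in wt spleens, the haem genes moved the same way as red cell membrane and skeleton genes. Of 13 erythroid marker genes tested (of 16 listed), 12 were higher in 4-month ko than wt spleens, against 2.5% of all genes, and 13 were lower in 4-month than 1-month wt spleens, against 11.5%. Their median genotype difference at 4 months was 1.00, where that of all 12339 genes tested was 0.02. Slc4a1, the anion exchanger band 3, differed by 1.14 (limma adjusted p = 0.00147), Ank1, ankyrin, by 1.45 (0.00196), Rhag, the Rh-associated glycoprotein, by 1.08 (0.002), and Dmtn, dematin, by 1.48 (0.00315) between the genotypes at 4 months. The summed signal of the list was 78821 to 87263 in 4-month ko mice, against 30890 to 55172 in 4-month wt mice, and 124341 to 142883 in 1-month ko mice, against 122695 to 152747 in 1-month wt mice. Summed signals of other cell types differed at 4 months as well. Megakaryocyte genes had 36043 to 49118 in ko against 15226 to 25162 in wt mice (9 of 10 called higher), neutrophil genes 52905 to 70489 in ko against 10236 to 15121 in wt mice (11 of 13 called higher), and cell cycle genes 42224 to 45962 in ko against 21615 to 36651 in wt mice (8 of 11). At 1 month, when no haem probe set was called, neutrophil genes also differed, with 129852 to 160587 in ko against 45008 to 55395 in wt mice (12 of 13 called higher, against 0.365% of all genes), whereas 0 of the erythroid, megakaryocyte and cell cycle genes were called. The part of these cells in the haem gene differences was not tested.

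Set against the mean of the 13 erythroid markers in the same array, 18 of the 19 haem probe sets differed by less between the genotypes at 4 months. The median of all probe sets tested was -0.01, so most of them also differed by less than the markers. Their share was not counted, so the 18 of 19 does not set the haem genes apart. The marker mean differed by 1.09 between 4-month ko and wt mice, by 0.16 between 1-month ko and wt mice, and with age by -0.86 in ko and -1.78 in wt mice. Alas2 relative to the markers differed between ko and wt mice by -0.52 at 4 months and by -0.44 at 1 month, with no overlap at either age. The array sets divided the 1-month values: centred on the 12-array mean they were -0.85 to -0.66 in the ko mice, all of the low set, against -0.61 in the wt mouse of the low set and -0.18 and -0.12 in the wt mice of the high set. With age Alas2 gained on the markers, by 1.01 in ko and 1.09 in wt mice, again without overlap. Closest to the markers at 4 months were Abcb10 1416403_at (-0.03), Urod 1417206_at (-0.04), Ppox 1416618_at (-0.06), Fech 1449181_at (-0.08) and Uros 1423482_at (-0.11), all with overlap. The brighter Urod probe set, 1443849_x_at, was at -0.32. The ageing differences of Urod 1417206_at from the markers were -0.03 in ko and -0.09 in wt mice, and those of Uros 1423482_at were -0.17 and -0.31. Slc25a37 relative to the markers was at -0.59 between the genotypes at 4 months, with overlap, at -0.14 at 1 month, and at 0.42 and 0.87 with age in ko and wt mice. Larger gaps at 4 months, without overlap, were those of 3 dimmer probe sets, Cpox 1440747_at (-0.87), Uros 1440535_at (-0.73) and Alad 1457306_at (-0.65), and Alad 1424877_a_at did not overlap at -0.16. These are descriptions, with no test, of genes and markers that were chosen with earlier results in view.

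**Figure D4:**
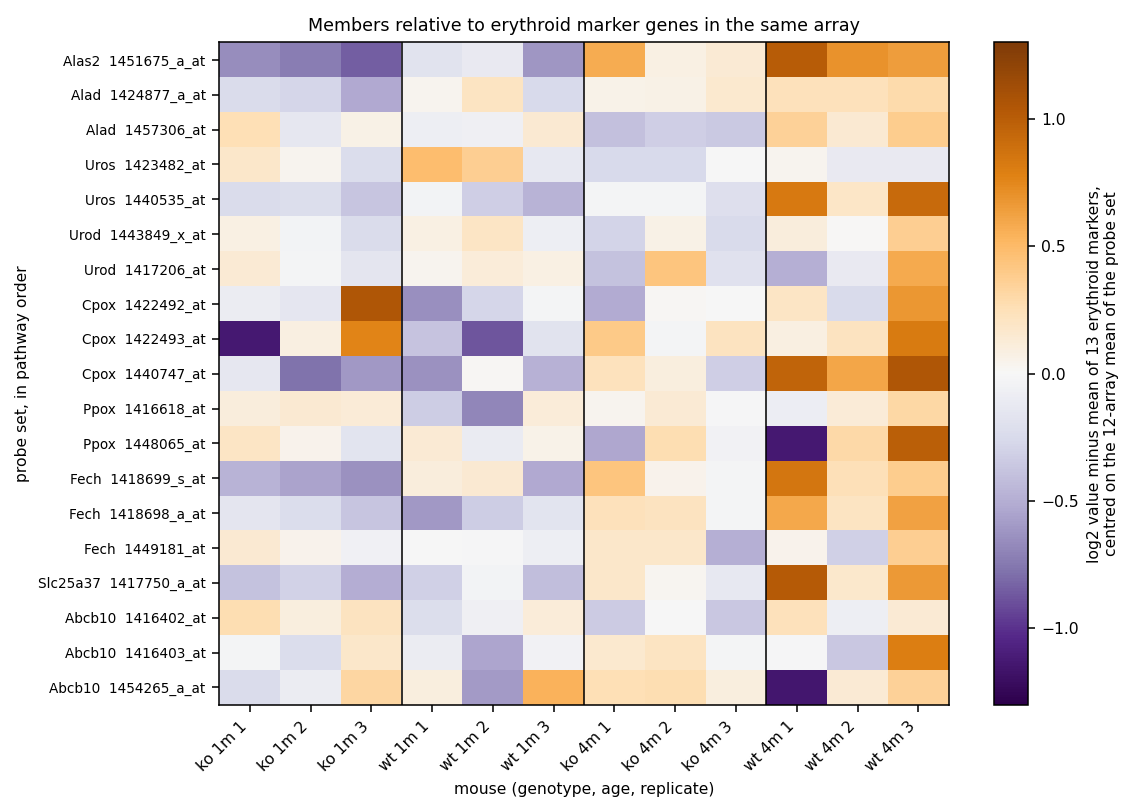
Log2 value of each of the 19 probe sets minus the mean of 13 erythroid markers in the same array, centred on the mean of the probe set over the 12 arrays; columns are single mice, ko left of wt at each age, and orange is high. The Alas2 and Slc25a37 strips are orange in 4-month wt mice and mostly purple at 1 month, and Alas2 was 1.09 higher in 4-month than 1-month wt mice, while Urod 1417206_at shows no step between the ages.

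Of 10 regulators of the erythroid programme, 6 were called higher in ko than wt spleens at 4 months and 0 lower, against 2.5% of all genes called higher, with a median difference of 1.19. The other 4 were Gfi1b (1.06), Ldb1 (0.42), Lmo2 (0.29) and Bcl11a (-0.20). Tal1, a partner of GATA1, differed by 1.25 (limma adjusted p = 0.000558), Nfe2 by 1.22 (0.00411), Epor, the erythropoietin receptor, by 1.46 (0.006) and Klf1 by 1.21 (0.0103). At 1 month 0 of the 10 were called. Of the 10 globin and globin chaperone genes listed, 2 were tested, Hbb-b2 and Hba-a2. Their differences at 4 months were 0.39 and -0.55, and neither was called. The Hba-a2 probe set had group means of 58.03 to 123.2, around the filter on low signal, so its values say little about globin. Hbb-b2 was lower at 4 months than at 1 month in wt (-1.21, limma adjusted p = 0.000326) and in ko spleens (-1.07, 0.00102). Hba-a2 was not called with age.

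Among 8 other genes of haem synthesis tested (median 0.26), 2 were higher in 4-month ko spleens: Abcb6, a transporter linked to porphyrins (0.88, limma adjusted p = 0.0111), and Slc25a38, the mitochondrial glycine carrier that supplies Alas2 (0.75, 0.0418). Slc25a39 (0.77, 0.0554) and Tmem14c, which takes part in porphyrin import into the mitochondrion (0.44, 0.167), were not called. With age in wt spleens 4 of the 8 were lower and 1 higher, where 11.5% of all genes were called lower and 12.5% higher: Slc25a39, Tmem14c, Abcb6 and Slc25a38 fell by 0.72 to 1.47, and Slc25a28, also a mitochondrial iron carrier and named after its values were seen, was higher by 0.54 (adjusted p = 0.0247). Of 11 genes of iron uptake and storage (median 0.18), Slc11a2, the ferrous iron transporter DMT1 (0.76, adjusted p = 0.0422), and Tfrc, the transferrin receptor (0.69, 0.0453), were higher in 4-month ko spleens, whereas Tfr2 (0.58, 0.148) and the ferrireductase Steap3 (0.82, 0.199) were not called. Of 10 iron-sulphur cluster genes (median 0.37) 0 were called at 4 months, the 4 with the smallest p being Glrx5 (0.58, adjusted p = 0.0799), Iba57 (0.58, 0.105), Hscb (0.54, 0.168) and Lyrm4 (0.45, 0.22), while 6 of the 10 were lower in 4-month than 1-month wt spleens.

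Of 8 genes of haem export and breakdown (median 0.11), Abcg2, which exports porphyrins (0.76, limma adjusted p = 0.0159), and Blvrb, a biliverdin reductase (0.86, 0.0495), were higher in 4-month ko spleens. Slc48a1 (0.71, adjusted p = 0.0916) and Flvcr2 (-0.73, 0.338) were not called. Of 5 genes that sense haem or act with its sensors (median 0.25), 0 were called at 4 months, with Eif2ak1, the haem-regulated kinase of translation, at 0.64 (adjusted p = 0.0624), Mafk at 0.37, Keap1 at 0.25 and Bach1, the repressor that haem inactivates, at -0.10. Hmox1, haem oxygenase, which breaks haem down, was named after its values were seen: it ran against the synthesis genes with age and was higher at 4 than at 1 month in ko (1.17, adjusted p = 0.000257) and wt spleens (1.20, 0.000126). The red pulp macrophage list was also higher with age, at 70680 to 77934 in 4-month ko against 32988 to 38964 in 1-month ko mice, and at 61945 to 67395 in 4-month wt against 43122 to 49790 in 1-month wt mice.

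The 9 genes, each by its brightest probe set, varied together over the 12 arrays, with Pearson's r between 0.28 and 0.98 over the 36 pairs and a median of 0.87. The arrays share their scaling and the group differences, so these values describe the groups as much as the genes. Uros and Urod had the highest r (0.98), and Alas2 and Cpox the lowest (0.28). After the group means were subtracted the range was -0.38 to 0.94 and the median 0.36. What was left joined Alas2 with Fech (0.94) and Alad with Uros (0.93). Each of these genes, and Slc25a37, read higher in the high-set than the low-set arrays of each wt group. Cpox had a median of -0.18 with the other 8 genes and was positive only with Abcb10 (0.41) and Ppox (0.34). Its probe set read 5324 in 1-month ko mouse 3, against 2021 and 2235 in the other mice of that group. The share of that mouse in these r values was not tested. Of 12330 other genes, those most like the mean of the 9 over the 12 arrays were Trak2 (r = 0.996), Ccnb2 (0.996), Rhag (0.996), Tspan33 (0.996) and Ank1 (0.994), of which the last 3 are on the erythroid marker list. Those most like Alas2 alone were Hscb (0.964), Ank (0.941), Ppbp (0.936), Fam220a (0.934) and Ndufv3 (0.923), and none of these is among the 5 most like the mean.

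**Figure D5:**
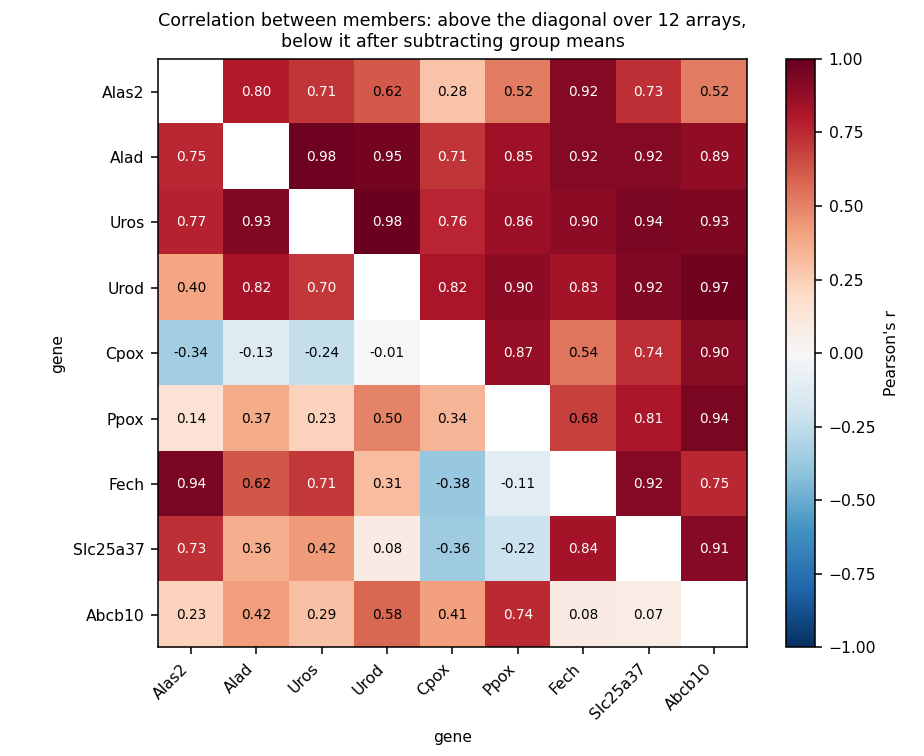
Pearson's r between the 9 genes (brightest probe set each, log2 values), above the diagonal over the 12 arrays and below it after subtracting group means; both axes list the genes in pathway order and red is positive. Above the diagonal the lowest value is 0.28 (Alas2 with Cpox). Below it the median is 0.36, and the Cpox row and column hold negative values except with Ppox and Abcb10.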

How the data were processed

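The deposited table holds 1 intensity per probe set and array, made by the authors with MAS5, per the submitters' processing notes; its version is not given in the sources used here. Signals were rescaled so that every array had a trimmed mean (2% off each end) of 500. Controls were left out, and log2(signal + 32) was tested for the 27041 probe sets that reached 100 in 3 or more arrays. The fit used limma 3.58.1 in R 4.3.3 (lmFit, eBayes with a trend) over 4 groups of 3 mice, with 5 contrasts, 2-sided, and Benjamini-Hochberg adjustment over all probe sets tested. A gene of a list was read by its probe set with the highest mean. The code was tested on simulated data. The number of arrays limits the precision.

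All 9 genes are named, with the up to 4 genes of each related list that had the smallest p at 4 months, and the 5 genes most like the pathway mean and Alas2. These genes and lists were chosen with earlier results of these data known. Probe sets annotated to several genes were left out, among them 1 shared by Slc25a37 and another gene. Alternatives covered normalization, offset, filter, eBayes settings, array weights, array set, replicate block and leaving out each mouse.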

Additional observations from a re-analysis of the deposited data

How the results depend on the processing

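The counts of haem probe sets called depended most on the processing for ko against wt mice at 4 months. Against 9 as reported, this count was 2 with eBayes without a trend, both of them Fech, and 0 within the high array set, which left 2 mice a group. Over all probe sets the calls were 621 as reported, 248 without a trend and 84 within the high set. The haem count was 2 to 13 with 1 mouse left out (161 to 991 of all), and it was 10 with the replicate number as a block (563 of all). The replicate numbers did not pair the mice: the 12 correlations between same-numbered mice ranged from -0.20 to 0.21 and 2 were over 0.1. The count for age in ko mice, 12 as reported, was 6 within the low set, where the 4-month group is 1 array assumed to vary like the others, and 7 to 13 with 1 mouse left out. The count for age in wt mice was 16 to 18 with 1 mouse left out, where the calls over all probe sets were 3492 to 6375, against 5795 as reported. In the same fits the haem count was 0 for ko against wt at 1 month and 0 to 1 for the difference between the ages. Over all contrasts, the 38 calls of single probe sets were kept 926 times under the alternatives, lost 88 times and changed direction 0 times; the cause of the losses was not tested. Centring each array on its median moved the median of all probe sets tested to 0.14 for ko against wt at 1 month and to -0.12 for the difference between the ages, where 0 of the 19 were called all the same. MAS5 signals near the filter carry little above background, which limits the dim probe sets of Uros, Cpox, Ppox and Abcb10.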
